A study of Rattus norvegicus with 4 samples.

Results

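The secreted Wnt antagonists Sfrp1, Sfrp2, Frzb, Dkk2 and Dkk3 and the β-catenin readout genes Axin2, Lef1, Tcf7l2 and Ctnnb1 were examined in neonatal rat cardiomyocyte cultures that had received a mimic of miR-25, miR-93 or miR-106b. These 9 genes were taken by symbol from the 15731 genes of the deposited table, and each of them is listed once. The cells were ventricular cardiomyocytes of wild type Wistar rats at postnatal day 1 (the treatment protocol names day 0). Attached cells were left behind on plastic before the cardiomyocytes were plated, and the labels do not state how many non-myocytes remained. Cultures were transfected with hsa-miR-25-3p, hsa-miR-93-5p, hsa-miR-106b-5p or, as control, the worm miRNA cel-miR-67, and RNA was harvested 72 h later. The dose is 25 nM in the treatment protocol and 25 mM in the extraction protocol. Each mimic has 1 library, so no difference between mimics has a replicate check and no p-value is given.

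Wnt proteins bind a Frizzled receptor and an Lrp5 or Lrp6 co-receptor, and this stops the destruction complex of Axin, Apc and Gsk3 from marking β-catenin for degradation. β-catenin then accumulates and works with Tcf and Lef factors in the nucleus. Secreted frizzled-related proteins (Sfrp1, Sfrp2 and Frzb) bind Wnt proteins outside the cell, and Dickkopf proteins such as Dkk2 act on the Lrp co-receptors, while Dkk3 is a divergent relative whose action on Wnt signalling is less settled. In the heart the pathway is known for its stage-dependent part in specifying cardiac progenitors and in expanding them, and β-catenin also sits in the adherens junctions that join heart muscle cells.

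The mimics fall into 2 seed families. The mature rat sequences of RefSeq (build GRCr8) are shown because the seed, bases 2 to 8 and in capitals, groups miR-106b with miR-93 and sets miR-25 apart.
rno-miR-106b-5p: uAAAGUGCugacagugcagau
rno-miR-93-5p: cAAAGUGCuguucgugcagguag
rno-miR-25-3p: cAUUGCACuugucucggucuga
They lie on the minus strand within the span of the gene Mcm7, at chr12:22157103-22157123, chr12:22156894-22156916 and chr12:22156652-22156673 in the same order. miR-106b-5p and miR-93-5p share AAAGUGC and are identical over 9 bases from position 2, whereas miR-25-3p carries AUUGCAC.

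Among the readout genes, Axin2 encodes a scaffold of the destruction complex that is itself a widely used β-catenin target. In the RefSeq promoters (GRCr8, 250 bases before to 50 after the start of each gene), both strands were searched for the Tcf/Lef core motif in 4 spellings, CTTTGAA, its relative CTTTGAT, the form CTTTGTA and the form CTTTGTT, which cannot match at the same position. Of the 6 members in that table, Sfrp2, Frzb, Axin2, Lef1, Tcf7l2 and Ctnnb1, only the Axin2 window held a match, and it held 2. Of all 33469 windows of this length, 17.1% held at least 1. The Axin2 matches are shown in capitals with their flanks, both on the strand of the gene, at chr10:94398545-94398567 and chr10:94398645-94398667.
Axin2, motif starting at -232: gatttcgcCTTTGAAaaagctgt
Axin2, motif starting at -132: ctttcttgCTTTGATgttgggta
A match describes the letters of the window and not the binding of a factor.

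Expression was given as RPKM, reads divided by gene length in kilobases and by library depth, so that levels can be compared between genes. Whole reads behind these values were recovered for all 15731 genes, and reads on listed genes numbered 15175185 to 18797234 per library. Intervals below are 95% exact intervals from these reads, and they cover counting error only. A ratio is the RPKM with a mimic over the RPKM with cel-miR-67, and a gene was called higher or lower when it passed 1.3-fold (0.38 on the log2 scale) with RPKM above 1.0 in both libraries. All 3 comparisons share the control library. All markers of the cardiomyocyte, fibroblast, epicardial, and smooth muscle and pericyte lists were above RPKM 1.0 in the control library. Summed RPKM there was 23987 for the 10 cardiomyocyte markers, 862 for the fibroblast list and 757 for the smooth muscle and pericyte list. It was 29.7 for the epicardial list, 12.7 for the macrophage list and 4.89 for the endothelial list. In these bulk samples, fewer cells of a type and less RNA per cell cannot be told apart. The median log2 ratio of all tested genes was -0.0033 after miR-106b, -0.0018 after miR-93 and -0.012 after miR-25. Rescaling to the reads on listed genes adds 0.083, 0.15 and 0.15 to every log2 ratio, and it moved the share of higher genes among all called genes from 48.2% to 64.5%, from 49.2% to 71.7% and from 46.1% to 64.3%.

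Only 3 of the 9 genes, Sfrp1, Dkk3 and Ctnnb1, were above RPKM 1.0 in all 4 libraries. Sfrp1 was 2.88-fold higher after miR-25 and lower after miR-106b and miR-93. Dkk3 showed the reverse order, 2.90-fold lower after miR-25 and 1.71-fold higher after miR-93. Ctnnb1, the gene of β-catenin itself, was the most abundant member and was higher than in the control library with each mimic, by at most 1.31-fold. Lef1 was scarce throughout and reached 64 reads after miR-25, against 10 or 11 in the other libraries. Axin2 stayed at or below RPKM 0.26.

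Of the 3 members above the RPKM minimum after miR-106b, 1 was called lower and 0 higher, where 12.7% of all 11296 tested genes were called lower and 11.9% higher. With miR-93, 2 of 4 were called higher and 1 lower, against 15.1% and 15.6% of 11280 tested genes. With miR-25, 1 of 4 was called higher and 1 lower, against 19.3% and 22.6% of 11198. With no RPKM minimum, all 9 could be read, many of them from under 30 reads. Past 1.3-fold there were then 5 lower and 0 higher after miR-106b (18.9% and 18.0% of all genes), 2 lower and 5 higher after miR-93 (19.9% and 21.0%), and 2 lower and 4 higher after miR-25 (26.2% and 24.1%). With so few members above the minimum, these counts describe the named genes and not the set.

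**Figure D1:**
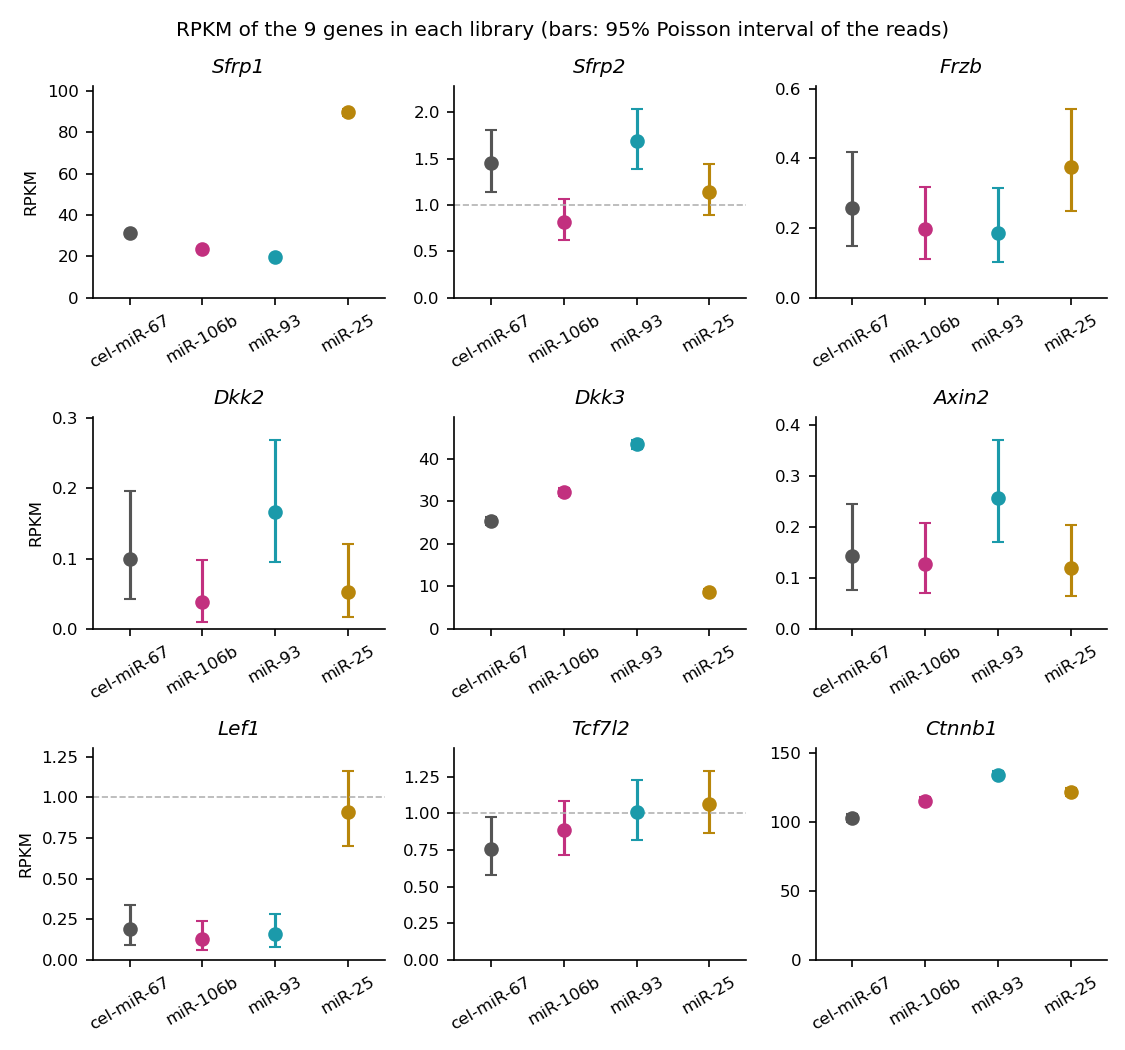
RPKM of each of the 9 genes (vertical axes, linear, each from 0) in the 4 libraries (horizontal axes), with 95% Poisson intervals of the reads as bars and RPKM 1 as a dashed line where it crosses the axis. Sfrp1 stands at 89.6 after miR-25 and below 32 elsewhere, Dkk3 at 8.76 after miR-25 and above 25 elsewhere, and Lef1 at 0.91 after miR-25 and below 0.19 elsewhere.

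Sfrp1 (ENSRNOG00000017783) encodes a secreted protein that captures Wnt ligands through a domain like that of the Frizzled receptors. Its RPKM was 31.1 in the control library, 23.6 after miR-106b, 19.6 after miR-93 and 89.6 after miR-25, from 2747, 2738, 2084 and 9502 reads. The miR-25 library stood far above the other 3, the control library came next, and both miRNAs of the AAAGUGC seed lay below it. Each neighbouring pair in this order differed beyond its counting interval.

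The log2 ratio of Sfrp1 over control was -0.40 after miR-106b (interval -0.47 to -0.32), -0.67 after miR-93 (-0.75 to -0.58) and 1.53 after miR-25 (1.46 to 1.59). The miR-25 value was above that of 99.2% of tested genes. With miR-106b the interval spans the 1.3-fold cutoff, and on the scale of listed reads the ratio was -0.31, short of it. Between mimics, Sfrp1 was 4.57-fold higher after miR-25 than after miR-93 (4.36 to 4.79) and 3.79-fold higher than after miR-106b (3.63 to 3.95).

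Markers of smooth muscle and pericytes moved with Sfrp1 after miR-25, and only in part with the other mimics. All 6 were called higher after miR-25, where 19.3% of all tested genes were. Calls after miR-106b were 1 of 6 higher and 2 lower, against 11.9% and 12.7% of all tested genes. After miR-93 they were 0 of 5 tested higher and 2 lower, against 15.1% and 15.6%. The summed RPKM of this list was 2071 after miR-25, against 757 in the control library, 698 after miR-106b and 597 after miR-93. Tagln alone held 478 in the control library. Of the epicardial list, 2 of 6 were called higher and 1 lower after miR-25, with a summed RPKM of 42.2 against 29.7 in the control library. This list did not follow Sfrp1 with the other mimics. After miR-106b 2 were higher and 0 lower (summed RPKM 32.7), and after miR-93 3 were higher and 0 lower (39.4). Of the fibroblast list after miR-25, 7 of 10 were called lower and 1 higher, with a summed RPKM of 365. None of these markers was at 0 in any library, and their part in the Sfrp1 values was not tested.

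Sfrp2 (ENSRNOG00000009465), a close relative of Sfrp1 that is known from cardiac fibroblasts, was much scarcer. Its RPKM was 1.45 in the control library, 0.82 after miR-106b, 1.69 after miR-93 and 1.14 after miR-25, from 77, 57, 108 and 73 reads. Ranked by level the order was miR-93, control, miR-25 and miR-106b, and no neighbours in that ranking differed beyond counting error. The log2 ratio was -0.83 after miR-106b (-1.35 to -0.31), where Sfrp2 was under the RPKM minimum, 0.22 after miR-93 (-0.22 to 0.66) and -0.34 after miR-25 (-0.82 to 0.14). Within the AAAGUGC family, Sfrp2 was 2.06-fold higher after miR-93 than after miR-106b (1.48 to 2.90), while Sfrp1 was 1.21-fold lower. Sfrp1 exceeded Sfrp2 by 21.5-fold in the control library, 28.9-fold after miR-106b, 11.6-fold after miR-93 and 78.3-fold after miR-25.

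Frzb (ENSRNOG00000007765), the third frizzled-related antagonist and a gene best known from cartilage, was near the detection limit. Its RPKM was 0.26 in the control library, 0.20 after miR-106b, 0.19 after miR-93 and 0.38 after miR-25, from 16, 16, 14 and 28 reads. All 3 log2 intervals against control include 0, at -1.49 to 0.70 after miR-106b, -1.61 to 0.67 after miR-93 and -0.39 to 1.53 after miR-25, so no difference from control was detectable at this depth.

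Dkk2 (ENSRNOG00000011360), a Dickkopf ligand of the Lrp co-receptors, had the lowest RPKM of the members in every library except that of miR-93, where Lef1 was lower. It had 8 reads in the control library, 4 after miR-106b, 16 after miR-93 and 5 after miR-25, at RPKM 0.10, 0.038, 0.17 and 0.052. None of its ratios to control was distinguishable from counting error, with log2 intervals of -3.57 to 0.51, -0.58 to 2.16 and -2.90 to 0.85. The miR-93 library lay above the miR-106b library by 2.12 on the log2 scale (0.49 to 4.16).

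Dkk3 (ENSRNOG00000016343) encodes the divergent Dickkopf protein and was the most abundant of the listed Dickkopf genes. Its RPKM was 25.4 in the control library, 32.1 after miR-106b, 43.3 after miR-93 and 8.76 after miR-25, from 2887, 4787, 5932 and 1196 reads. The order was miR-93, miR-106b, control and miR-25, the exact reverse of Sfrp1, and each neighbouring pair differed beyond its counting interval.

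The log2 ratio of Dkk3 was 0.34 after miR-106b (0.27 to 0.40), 0.77 after miR-93 (0.71 to 0.83) and -1.54 after miR-25 (-1.64 to -1.44). The miR-25 value was above that of 1.38% of tested genes and the miR-93 value above that of 96.4%. The miR-106b value was under the cutoff on the deposited scale and past it, at 0.42, on the scale of listed reads. Dkk3 was 4.95-fold lower after miR-25 than after miR-93.

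Marker lists moved in part with Dkk3, and the cardiomyocyte list did so only after miR-25. In that library, 9 of the 10 cardiomyocyte markers were called lower and 1, Nppa, higher, where 22.6% of all tested genes were lower. Their summed RPKM was 17202 after miR-25 against 23987 in the control library. Nppa alone held 4425 and 1860 of these sums, and 261 of the sum after miR-93. After miR-93 the summed RPKM was 14802, with 6 of 10 called lower and 1, Tnni3, higher. After miR-106b it was 21067, with 4 lower and again Tnni3 higher. Of all tested genes, 15.6% were called lower and 15.1% higher after miR-93, and 12.7% and 11.9% after miR-106b. Tnni3, the cardiac troponin I gene, stood at RPKM 351 in the control library, 543 after miR-106b, 495 after miR-93 and 15.9 after miR-25. It lay on the same side of control as Dkk3 each time, and no other gene of the cardiomyocyte list did so. Of the fibroblast list, 7 of 10 were called lower and 1 higher after miR-25, with a summed RPKM of 365 against 862 in the control library, 678 after miR-106b (5 lower) and 785 after miR-93 (4 lower). Of the macrophage list, 3 of 4 tested markers were called lower after miR-25, and its summed RPKM was 7.15 there against 12.7 in the control library, 13.7 after miR-106b and 15.4 after miR-93. The part of these cells in the Dkk3 values was not tested.

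Because Sfrp1 and Dkk3 were read in the same libraries, their ratio within a library does not depend on the scaling between libraries. Sfrp1 over Dkk3 was 1.22 in the control library (1.16 to 1.29), 0.736 after miR-106b (0.702 to 0.772), 0.452 after miR-93 (0.430 to 0.475) and 10.2 after miR-25 (9.63 to 10.9). The 5 antagonists together summed to RPKM 58.3 in the control library, 56.8 after miR-106b, 65.0 after miR-93 and 99.9 after miR-25. Sfrp1 made up 53.3% of this sum in the control library, 41.6% after miR-106b, 30.2% after miR-93 and 89.7% after miR-25. Sfrp2, Frzb and Dkk2 together held at most 3.14% of it in any library.

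**Figure D2:**
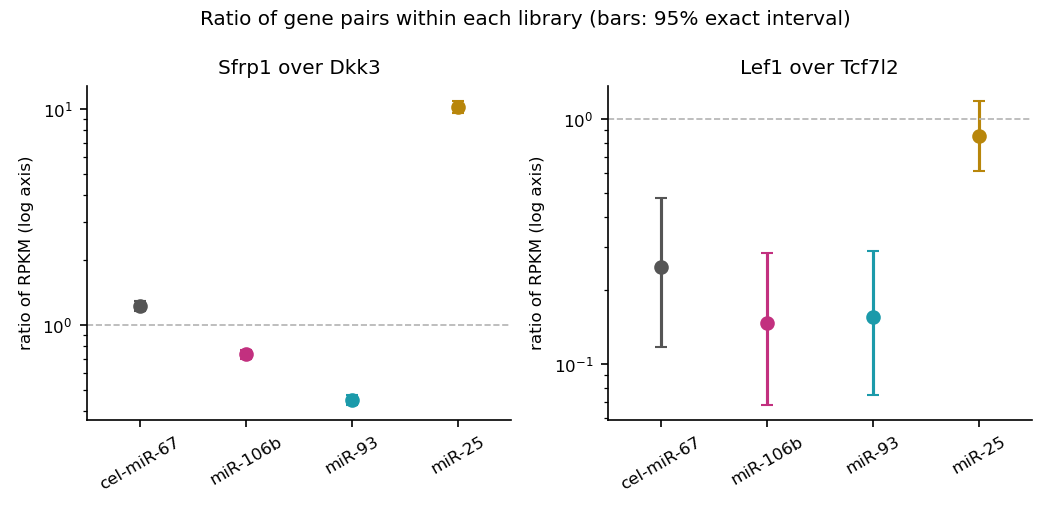
Ratio of RPKM of Sfrp1 over Dkk3 (left) and of Lef1 over Tcf7l2 (right) within each library (log axes), with 95% exact intervals as bars and a dashed line at equal levels. Sfrp1 over Dkk3 ranges from 0.45 after miR-93 to 10.2 after miR-25, and Lef1 over Tcf7l2 is 0.86 after miR-25 against 0.25 or less in the other libraries.

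Ctnnb1 (ENSRNOG00000054172) encodes β-catenin, which serves both cell junctions and Wnt signalling. Its signalling pool is set by the stability of the protein, which RNA levels do not measure. Its RPKM was 103 in the control library, 115 after miR-106b, 134 after miR-93 and 121 after miR-25, from 5588, 8234, 8799 and 7957 reads. The control library was lowest, and Ctnnb1 exceeded at least 96.8% of listed genes in each library.

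The log2 ratio of Ctnnb1 was 0.17 after miR-106b (0.12 to 0.22), 0.39 after miR-93 (0.34 to 0.43) and 0.24 after miR-25 (0.19 to 0.29). Only the miR-93 value passed the cutoff, by a small margin and with an interval of 1.26 to 1.35-fold that spans it. On the scale of listed reads the values were 0.25, 0.53 and 0.39, and the miR-25 value was then past it too.

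Lef1 (ENSRNOG00000010121) encodes the high-mobility-group factor that brings β-catenin to DNA, and its own transcription is a known β-catenin readout in many tissues. Its RPKM was 0.19 in the control library, 0.13 after miR-106b, 0.16 after miR-93 and 0.91 after miR-25, from 11, 10, 11 and 64 reads. The miR-25 library stood above the other 3, which did not differ beyond counting error.

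The log2 ratio of Lef1 after miR-25 was 2.28 (1.34 to 3.35), a 4.84-fold difference (2.53 to 10.2). The gene stayed under RPKM 1.0 in every library and so was not called. With a pseudocount of 1 RPKM the value was 0.69. With miR-106b and miR-93 the intervals ran from -1.92 to 0.85 and from -1.62 to 1.08. Lef1 was 6.99-fold higher after miR-25 than after miR-106b (3.56 to 15.3) and 5.83-fold higher than after miR-93 (3.05 to 12.3).

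Tcf7l2 (ENSRNOG00000049232), the other Lef/Tcf factor of the set, was near RPKM 1 throughout. Its RPKM was 0.76 in the control library, 0.89 after miR-106b, 1.01 after miR-93 and 1.06 after miR-25, from 60, 92, 96 and 101 reads. The control library was lowest but no neighbouring pair differed beyond counting error. The log2 ratios were 0.22 (-0.26 to 0.72), 0.41 (-0.071 to 0.90) and 0.49 (0.011 to 0.97), and the last interval alone leaves out 0. Lef1 over Tcf7l2 was 0.25 in the control library (0.12 to 0.48), 0.147 after miR-106b, 0.155 after miR-93 and 0.857 after miR-25 (0.62 to 1.18), so that both factors stood at like levels after miR-25 alone.

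Axin2 (ENSRNOG00000055010), whose promoter matches are shown above, had 13 reads in the control library, 15 after miR-106b, 28 after miR-93 and 13 after miR-25, at RPKM 0.14, 0.13, 0.26 and 0.12. The log2 ratio was -0.19 after miR-106b (-1.36 to 1.01), 0.84 after miR-93 (-0.16 to 1.91) and -0.27 after miR-25 (-1.49 to 0.96). No difference from control was detectable at this depth. The interval after miR-25 reaches up to 1.95-fold for Axin2, whereas the lower bound for Lef1 in the same library was 2.53-fold.

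**Figure D3:**
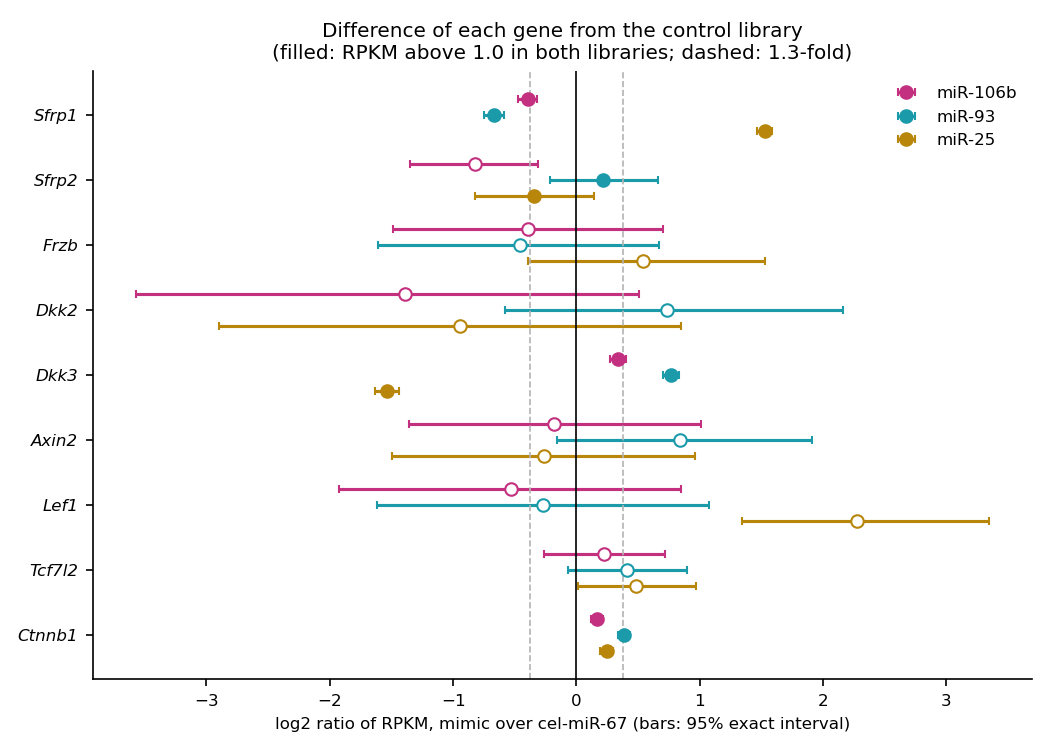
Log2 ratio of RPKM over cel-miR-67 (horizontal axis) for each of the 9 genes and 3 mimics, with 95% exact intervals as bars, filled points where RPKM was above 1.0 in both libraries, and dashed lines at 1.3-fold. Sfrp1 and Dkk3 lie on opposite sides of 0 with every mimic, and the scarce genes Frzb, Dkk2 and Axin2 have intervals that include 0.

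Over the 9 genes and 3 mimics, 12 of 27 intervals against control left out 0, as did 18 of 27 between mimics, without adjustment for their number. Of the 12, 9 belong to Sfrp1, Dkk3 and Ctnnb1.

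To see which genes followed the members most closely, the distance between their 3 log2 ratios was taken among 4045 genes whose RPKM exceeded 10 in every library. For Lef1, whose ratios had the widest range (2.80), the nearest genes were Sfrp1 at a distance of 0.86, the smooth muscle actin gene Acta2 at 0.87 and the actin-binding gene Tagln at 0.90. The order of these 3 is within the counting error of Lef1, whose reads numbered 10 to 64. For Dkk3, with a range of 2.31, they were Mlf1 at 0.20, Fhl2, a LIM-domain gene of heart muscle, at 0.25 and Palldl1 at 0.37. Sfrp1, added after the values were seen, had Prrg4 at 0.33, Tagln at 0.43 and Acta2 at 0.44. Tagln had log2 ratios of 1.45 after miR-25, -0.30 after miR-93 and -0.18 after miR-106b, and those of Fhl2 were -1.40, 0.67 and 0.52. These distances rest on 3 ratios that share 1 control library.

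The rest of the pathway was read from 8 role lists of 116 names, of which 88 were listed once. With miR-106b, 4 of 58 tested genes were called higher (6.90%, against 11.9% of all tested genes) and 13 lower (22.4%, against 12.7%). With miR-93, 11 of 58 were higher (19.0%, against 15.1%) and 15 lower (25.9%, against 15.6%). With miR-25, 16 of 56 were higher (28.6%, against 19.3%) and 8 lower (14.3%, against 22.6%). Their median log2 ratios were 0.026, 0.012 and 0.13. Each role list held at most 15 tested genes, so the counts by role below describe those genes and not the role.

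Of the Wnt ligands, Wnt5a was the only one of 11 listed genes above RPKM 1.0 in every library. Wnt5a, a ligand best known for β-catenin-independent signalling, stood at RPKM 2.14 in the control library, 2.25 after miR-106b, 2.89 after miR-93 and 1.02 after miR-25. Its log2 ratio was 0.43 after miR-93 (0.20 to 0.67) and -1.07 after miR-25 (-1.38 to -0.76). Wls, the carrier that brings Wnt proteins to the cell surface, was at 122 in the control library and 128 after miR-25, but at 79.2 after miR-106b and 74.3 after miR-93. Its log2 ratios after the latter mimics were -0.62 (-0.65 to -0.59) and -0.71 (-0.75 to -0.68). Porcn, the enzyme that attaches the lipid of Wnt proteins, was at -0.48 after miR-106b (-0.91 to -0.058) and 0.38 after miR-25 (0.0021 to 0.76), under the cutoff in the latter case. Dkk4 was not past the cutoff with any mimic, at 0.35, 0.20 and 0.11.

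Among the 15 tested receptor genes, 5 were called lower and 0 higher after miR-106b, against 12.7% and 11.9% of all tested genes. Counts were 7 lower and 2 higher after miR-93 (15.6% and 15.1%), and 1 lower and 4 higher after miR-25 (22.6% and 19.3%). Frizzled genes were among both the lower and the higher ones. Fzd6 had log2 ratios of -1.03 after miR-106b (-1.19 to -0.87), -0.85 after miR-93 (-1.02 to -0.69) and 0.39 after miR-25 (0.26 to 0.52). Fzd2 was at -0.63, -1.19 and -0.17 with the same mimics, and Fzd5 at 0.96 after miR-25 (0.60 to 1.33). Fzd7 was lower in each comparison, at -0.68, -1.04 and -0.89, with RPKM 4.61 in the control library and 2.25 to 2.87 with the mimics.

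In the cytoplasm, 1 of 13 tested genes was called lower and 0 higher after miR-106b, against 12.7% and 11.9% of all tested genes. Counts were 2 lower and 3 higher after miR-93 (15.6% and 15.1%), and 2 lower and 1 higher after miR-25 (22.6% and 19.3%). Nkd2, a naked cuticle gene whose product binds Dishevelled, stood at RPKM 4.94 in the control library, 3.23 after miR-106b, 3.44 after miR-93 and 2.11 after miR-25. Its log2 ratio was -1.23 after miR-25 (-1.46 to -0.995). Tnks, the tankyrase that marks Axin for degradation, was at 0.58 after miR-93 (0.43 to 0.73).

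Of 12 tested nuclear partners, 3 were called higher after miR-106b, 3 after miR-93 and 6 after miR-25. The shares of all tested genes were 11.9%, 15.1% and 19.3%. Called lower were 0, 0 and 1, against 12.7%, 15.6% and 22.6% of all tested genes. Ctnnbip1, which encodes a small inhibitor that binds β-catenin and blocks its contact with Tcf factors, had RPKM 1.96 in the control library, 6.38 after miR-106b, 7.12 after miR-93 and 4.22 after miR-25. The control library was the lowest of the 4. The log2 ratios of Ctnnbip1 were 1.70 (1.40 to 2.01), 1.86 (1.56 to 2.17) and 1.10 (0.79 to 1.43). Pygo1, a co-activator, was at 0.73, 0.99 and 1.05 with the same mimics, and Tle2, a Groucho co-repressor, at 0.75, 0.77 and 0.44.

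At the junction, 2 of 4 tested partners of β-catenin were called higher after miR-25 and none after miR-106b or miR-93. Of all tested genes, 19.3%, 11.9% and 15.1% were called higher with these mimics in the same order. Ctnna1, the α-catenin gene that links β-catenin to actin, was at RPKM 279 in the control library, 245 after miR-106b, 223 after miR-93 and 480 after miR-25. Its log2 ratio after miR-25 was 0.78 (0.76 to 0.80). Ctnnd1, the p120 catenin gene, was at 0.36, 0.36 and 0.43.

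Of the 8 tested β-catenin target genes beyond Axin2 and Lef1, 4 were called lower and 0 higher after miR-106b. The shares of all tested genes were 12.7% and 11.9%. Counts were 4 lower and 1 higher after miR-93 (15.6% and 15.1%), and 3 lower and 3 higher after miR-25 (22.6% and 19.3%). Ccnd1, the cyclin D1 gene, stood at RPKM 18.6 in the control library, 7.74 after miR-106b, 5.76 after miR-93 and 28.4 after miR-25, the same order as Sfrp1. From these same data, the study counts Ccnd1 among the targets that miR-106b and miR-93 share, and reports it as upregulated by miR-25. Whether the Ccnd1 values have to do with β-catenin was not tested. Myc, which drives growth and division, was at -1.07 after miR-25 (-1.47 to -0.68) and at -0.028 and -0.20 after miR-106b and miR-93. After miR-25 the called genes of this list went both ways, with Ccnd1, Fosl1 (0.53) and Twist1 (0.40 on the log2 scale) higher and Myc, Bmp4 (-0.96) and Cd44 (-0.83) lower. Of these, Fosl1, Twist1, Bmp4 and Cd44 were named after their values were seen, so that each call is given.

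**Figure D4:**
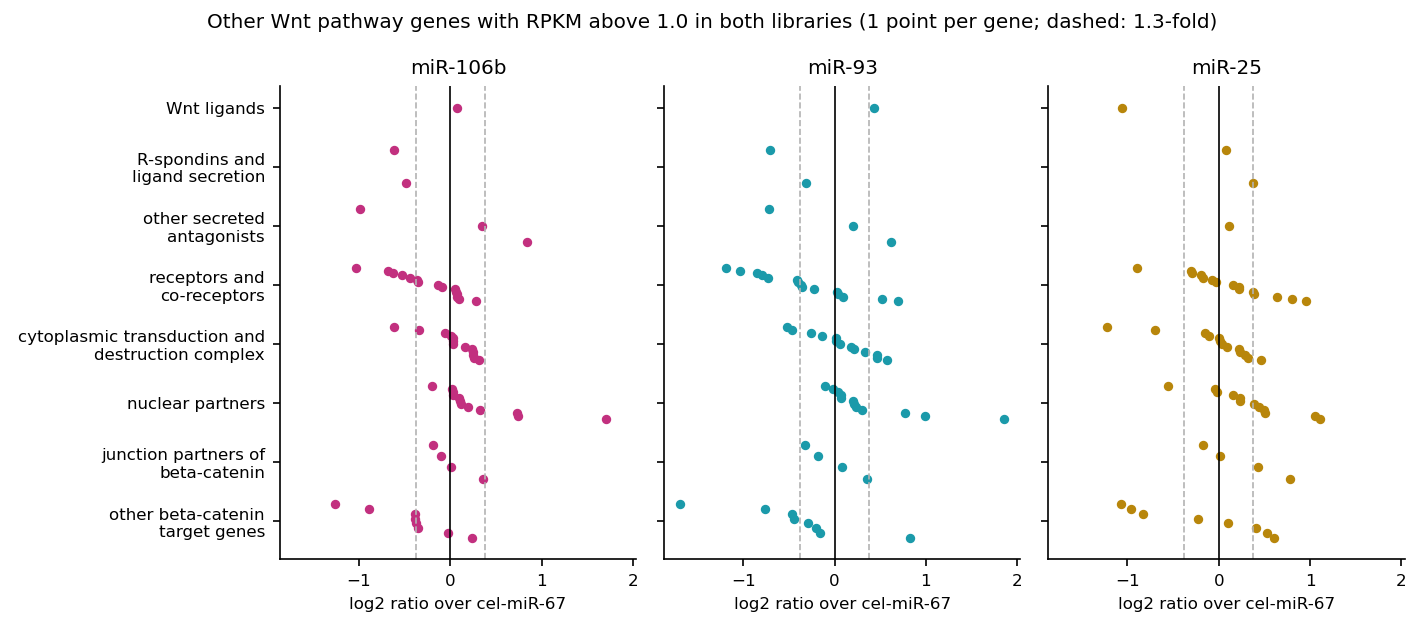
Log2 ratio over cel-miR-67 (horizontal axes) of the other Wnt pathway genes with RPKM above 1.0 in both libraries, 1 point per gene, by role (vertical axis) and mimic (panels), with dashed lines at 1.3-fold. With miR-93 7 of 15 receptor genes lie below the lower line, and after miR-25 4 lie above the upper one. Of all tested genes, 15.6% and 19.3% did so.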

How the data were processed

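RNA of 4 samples, 1 per mimic, was sequenced as single 50-base reads. Per the methods and the submitters' processing notes, the authors trimmed adaptors with Cutadapt, aligned reads with STAR 2.7 to the rat genome Rnor 6.0 and turned gene counts into RPKM values with edgeR. The counting program is not given in the sources used here. The deposited RPKM values cover 15731 genes. Whole reads were recovered here from the steps of these values, which are ratios of whole numbers once library sizes (22674410 to 29749466 reads) are known. Listed genes held 60.4% to 66.9% of library size.

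Ratios over cel-miR-67 were taken without a pseudocount. The 1.3-fold cutoff and the RPKM minimum of 1.0 follow the study, whose methods name 2.0 as the minimum. Intervals are Clopper-Pearson intervals of the share of reads (95%), and those of single levels are Poisson. Recovery and intervals were tested on simulated data. Symbols listed more than once (176) were left out of gene lists. Beyond the 9 members, the text names per role list the gene with the largest ratio in each comparison among those above RPKM 1.0 in all libraries, the genes past the cutoff the same way in every comparison, and the nearest genes by Euclidean distance. Members, lists and alternatives were chosen with earlier results of these data known. Alternatives were RPKM minimums of 2.0, 10 and none, fold cutoffs of 1.5 and 2, pseudocounts of 0.1 and 1, centring, and rescaling to listed reads. Predicted miRNA sites were not analysed here. The tools were matplotlib 3.10.9, pandas 2.3.3, scipy 1.17.1 and numpy 2.4.6 under Python 3.11.15.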

Additional observations from a re-analysis of the deposited data

How the results depend on the processing

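Counts of members past the cutoff were 1 lower after miR-106b, 2 higher and 1 lower after miR-93, and 1 higher and 1 lower after miR-25. With no RPKM minimum, where counts of under 30 reads enter, 5 of 9 were lower after miR-106b, 5 higher and 2 lower after miR-93, and 4 higher and 2 lower after miR-25. With an RPKM minimum of 10, 0 of 2 tested were lower after miR-25, because Dkk3, at RPKM 8.76 there, was no longer tested. With a fold cutoff of 1.5, 0 were lower after miR-106b and 1 higher after miR-93, and with a cutoff of 2, 0 were lower after miR-106b and 0 higher and 0 lower after miR-93. Of all tested genes, 588 were higher and 647 lower at 1.5-fold after miR-106b (of 11296), 781 and 942 after miR-93 (of 11280). After miR-25 they numbered 1189 and 1538 (of 11198). At 2-fold these counts were 139 and 150, 192 and 289, and 360 and 561. Rescaled to listed reads, 1 of 3 tested was higher and 0 lower after miR-106b, and 2 of 4 were higher after miR-25. Of all 11329 tested genes, 1882 were then higher and 1037 lower after miR-106b. After miR-25, 3284 of 11263 were higher. No log2 ratio of a member changed sign under rescaling.

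For the other pathway genes, an RPKM minimum of 2.0 left 1 of 50 tested higher after miR-106b and 10 of 47 higher after miR-25. Of all tested genes, 1065 of 9930 and 1747 of 9769 were then higher. A minimum of 10 left 0 higher and 3 lower of 16 tested after miR-106b, against 410 and 457 of all 4644 genes. After miR-93 it left 2 higher and 3 lower of 15, against 411 and 660 of 4570. After miR-25 it left 5 higher and 1 lower of 16, against 619 and 977 of 4481. With no minimum, 88 genes were tested in each comparison. Of these, 11 were higher and 20 lower after miR-106b (18.0% and 18.9% of all genes), and 26 higher after miR-93 (21.0%). After miR-25, 26 were higher and 14 lower (24.1% and 26.2%). A fold cutoff of 1.5 left 8 of 58 tested genes lower after miR-106b. It left 6 of 58 higher and 9 lower after miR-93, and 7 of 56 higher after miR-25. A cutoff of 2 left 1 higher and 2 lower, 1 higher and 3 lower, and 2 higher and 3 lower in the same order. Counts of all tested genes at these cutoffs are given above. A pseudocount of 1 RPKM left 10 of 56 higher after miR-25, against 1784 of all 11198 tested genes. Rescaling gave 8 of 58 higher after miR-106b and 9 of 58 lower after miR-93. Of all tested genes, 1882 of 11329 and 1117 of 11339 were so called. A lower minimum adds genes and a stricter cutoff removes them by construction. The other 68 of 108 counts stayed within 1.5 times. No paired analysis was possible because each mimic has 1 library. Depth limits Axin2, Frzb and Dkk2, with 4 to 28 reads per library.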

Other observations

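A few pathway genes outside the rule for named genes, chosen after their values were seen, also differed from control with some of the mimics. Wif1, the gene of a secreted Wnt inhibitor, stood at RPKM 4.09 in the control library, 7.30 after miR-106b, 6.27 after miR-93 and 0.80 after miR-25, from 208, 487, 384 and 49 reads. The miR-25 library was the lowest for Wif1, as it was for Dkk3. The log2 ratio of Wif1 after miR-25 was -2.35 (95% exact interval -2.83 to -1.90). It was 0.84 after miR-106b (0.60 to 1.08) and 0.62 after miR-93 (0.37 to 0.87), and both were called higher. Wnt2, a ligand of the canonical pathway, had RPKM 0.23 in the control library, 0.38 after miR-106b, 0.22 after miR-93 and 1.60 after miR-25, from 7, 15, 8 and 58 reads. The log2 ratio of Wnt2 after miR-25 was 2.79 (1.65 to 4.16), and its other intervals include 0. Apcdd1, a membrane-bound inhibitor, was below control in each comparison, at -0.98 after miR-106b (-1.44 to -0.53), -0.72 after miR-93 (-1.17 to -0.28) and -1.76 after miR-25 (-2.34 to -1.20). Sost, another secreted antagonist, was instead above control, at 1.82 after miR-106b (0.69 to 3.13) and 2.59 after miR-93 (1.52 to 3.87). Its interval after miR-25 was -0.19 to 2.45, and the control library held 8 reads of it. Frat2, also from 8 control reads, was at 1.94 after miR-25 (0.82 to 3.26). These intervals cover counting error in single libraries.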
